A study of Mus musculus with 18 samples.

Results

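A set of 9 genes that guide thymocytes through the thymus and out of it was followed across the arrays: the chemokine receptors Ccr9, Cxcr4, Ccr7, Ccr4 and Ccr10, the egress receptor S1pr1, its transcriptional activator Klf2, its antagonist Cd69, and the lysophospholipid receptor P2ry10. They were taken by name, as every probe set that the platform annotation assigns to 1 of these genes alone, which gave 13 probe sets among the 45101 on the array and 9 genes among the 18193 that could be named. RNA of thymocytes or tumour masses came from 18 mice, with 1 array per mouse. The control group held 5 mice, called wild type in the sample labels and LckCre in the design text, and the sources used here do not settle which. The second group was 5 mice of the CD4Cre-ctnnbex3 genotype taken before T-cell transformation, and the third 8 of that genotype with lymphoma. In CD4Cre-ctnnbex3 mice a Cre recombinase driven by Cd4 regulatory sequences acts in developing T cells and removes exon 3 of Ctnnb1, so that the beta-catenin made lacks the sites that mark it for destruction. Neither the ages of the mice nor a sort of the cells is given in the sources used here, and an extract of a whole thymus or tumour also holds cells that are not thymocytes.

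Thymocytes are moved by chemokines and lipids that act on G-protein-coupled receptors. Progenitors and double-positive cells use CXCR4, whose ligand is CXCL12, and CCR9, whose ligand CCL25 is made by thymic epithelium, while cells that have passed positive selection gain CCR7 and CCR4 and enter the medulla. Mature cells then gain KLF2, which switches on S1pr1, and leave along a gradient of sphingosine 1-phosphate, whereas CD69 binds the S1PR1 protein and takes it off the cell surface. CCR10, best known on skin-homing T cells and antibody-secreting cells, and P2RY10, a lymphocyte receptor for lysophosphatidylserine, complete the set.

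The start-site regions of 4 of these genes are shown because 3 of them, Ccr9, P2ry10 and Klf2, were lower in both CD4Cre-ctnnbex3 groups than in control and the fourth, Cxcr4, was higher before transformation. Each is the 250 bases before an annotated start, on the gene's strand, from RefSeq on GRCm38.p6, which held such a region for 5 of the 9 genes. Capitals mark matches on either strand to CACCC, the core bound by KLF proteins, to CTTTGA, the core bound by TCF/LEF proteins, and to TGTTTAC, a core bound by FOXO proteins, and no 2 of these matches overlap.
Ccr9, chr9:123766961-123767210, plus strand: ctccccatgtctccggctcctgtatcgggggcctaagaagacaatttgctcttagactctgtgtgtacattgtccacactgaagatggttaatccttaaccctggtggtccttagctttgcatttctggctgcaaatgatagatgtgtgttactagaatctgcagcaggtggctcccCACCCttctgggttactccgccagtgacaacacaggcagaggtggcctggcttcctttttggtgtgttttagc
P2ry10, chrX:107088242-107088491, plus strand: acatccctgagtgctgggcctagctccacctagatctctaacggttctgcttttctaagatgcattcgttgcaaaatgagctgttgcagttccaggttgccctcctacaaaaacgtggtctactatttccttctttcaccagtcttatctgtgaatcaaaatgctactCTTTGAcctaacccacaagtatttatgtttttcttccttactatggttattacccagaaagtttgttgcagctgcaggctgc
Klf2, chr8:72318812-72319061, plus strand: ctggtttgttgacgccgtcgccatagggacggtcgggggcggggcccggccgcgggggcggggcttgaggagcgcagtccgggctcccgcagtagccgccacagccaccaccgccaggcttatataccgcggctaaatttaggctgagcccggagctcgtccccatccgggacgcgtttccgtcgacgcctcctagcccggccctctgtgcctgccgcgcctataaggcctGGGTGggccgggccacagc
Cxcr4, chr1:128592300-128592549, minus strand: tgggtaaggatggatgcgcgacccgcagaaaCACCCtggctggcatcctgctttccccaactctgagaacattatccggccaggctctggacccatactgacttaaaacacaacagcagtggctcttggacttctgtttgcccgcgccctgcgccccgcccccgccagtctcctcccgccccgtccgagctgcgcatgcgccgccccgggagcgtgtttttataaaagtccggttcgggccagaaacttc
A KLF core was found once each in the windows of Ccr9, Klf2 and Cxcr4 and a TCF/LEF core once in that of P2ry10. The window of Ccr4, which passed in no comparison and is not printed, held both a TCF/LEF core and a KLF core. P2ry10 has a further annotated start with a window at chrX:107089083-107089332, also not printed, which held none of the 3 motifs. Among 32851 such windows, 52.0% held the KLF core, 13.8% the TCF/LEF core and 3.17% the FOXO core. The matches describe the letters of these windows and were not tested for binding.

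All 9 genes passed the filter on low signals, which asked for a signal above 109 on at least 5 arrays, but not all by the same route. Ccr10 passed it on exactly 5 arrays, 4 lymphomas and 1 mouse before transformation, and Ccr7 on 8, of which 5 were controls and 3 lymphomas. A gene that passes through 1 group is more likely to differ from it, so the counts below describe these genes and do not stand for genes in general. Signals under 53.5, and blanks, were set to that value, the floor, which lies at 5.74 on the log2 scale.

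Before transformation 5 of the 9 genes fell and 1 rose against control, where 10.5% of the 14019 genes tested passed in either direction, 6.18% lower and 4.37% higher. Ccr7, P2ry10, S1pr1, Klf2 and Ccr9 fell and Cxcr4 rose, and for each of these 6 the 5 mice of one group lay wholly apart from the 5 of the other, as they did for 10.6% of all genes, 6.24% with the mice before transformation lower. The median log2 difference of the 9 genes was -1.23, beside -0.02 over all genes. In lymphomas against control the same 5 genes were lower and none was higher (40.1% of all genes passed, 22.7% lower), again without overlap for each of the 5 (20.2% of all genes), and the median was -1.13 beside -0.03. Lymphomas differed from mice before transformation in 3 genes, Cxcr4, Cd69 and P2ry10, all lower (34.4% of all genes passed, 18.3% lower and 16.0% higher), 2 of them without overlap (15.5% of all genes, 8.85% lower). The split of all calls in the lymphoma comparisons moved with scaling: 43.3% of calls against control were higher as deposited, 57.8% after quantile normalization and 55.3% with arrays centred on their median, and against mice before transformation 46.6%, 58.9% and 58.6%. The median difference of all genes against control went from -0.03 to 0.08 under quantile normalization. Both comparisons with control use the same 5 control mice. In such extracts fewer cells of a type and less RNA per cell cannot be told apart.

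**Figure D1:**
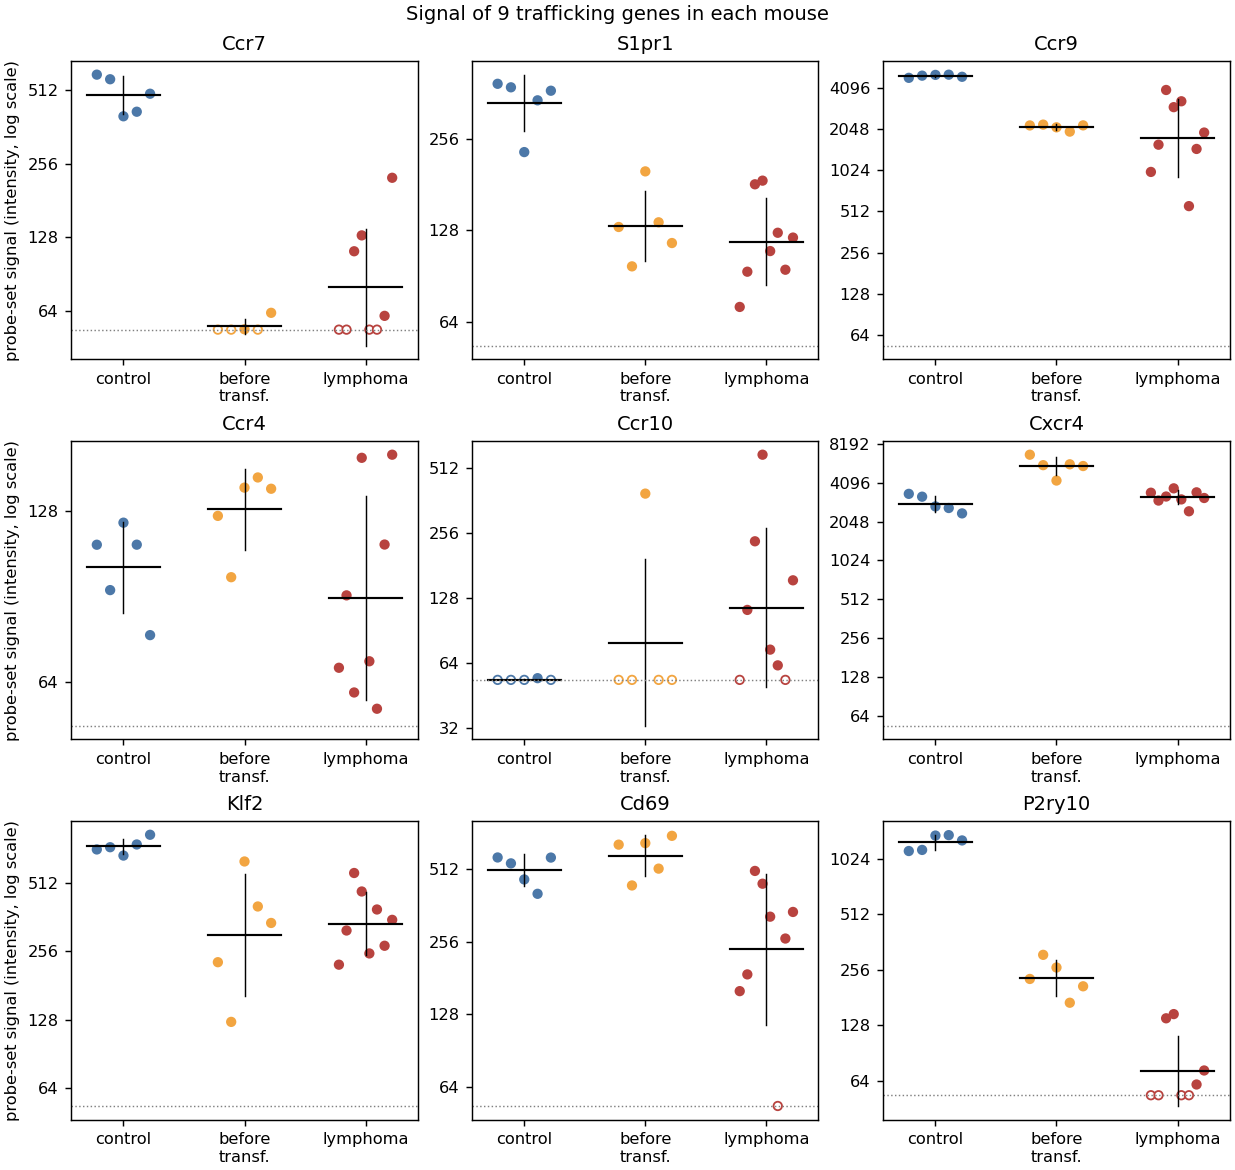
Probe-set signal (intensity, log scale) of the 9 genes in each mouse, by group, at the probe set of highest mean signal; horizontal bars are means of log2 signals, vertical bars 1 SD, the dotted line the floor of 53.5, and open points values at the floor. Ccr7, S1pr1, Ccr9, Klf2 and P2ry10 lie lower in every mouse of both CD4Cre-ctnnbex3 groups than in every control, and Cxcr4 lies highest before transformation.

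Ccr9 fell before transformation and varied widely among tumours. At its brightest probe set the signal was 4822, 5002, 5066, 5084 and 4908 in controls 1 to 5 and 2168, 2198, 2101, 1954 and 2171 in mice before transformation 1 to 5. Both sets were narrow and did not overlap. The mean log2 signal went from 12.28 ± 0.03 (SD, n = 5) to 11.05 ± 0.07 (n = 5), a difference of -1.23 ± 0.06 (SE), or 2.35-fold lower, with a limma adjusted p of 9.79e-08. A single fit of all 3 groups lost the call, since the wide lymphomas then enter the spread (limma adjusted p = 0.0514, the highest over the alternatives). Lymphomas 1 to 8 had signals of 993, 1569, 3932, 2947, 3253, 559, 1461 and 1924. All lay below the controls, but lymphomas 3, 4 and 5 lay above every mouse before transformation and the other 5 below, with a 7.03-fold range against 1.05-fold in controls. The lymphomas were 2.83-fold lower than control (-1.50 ± 0.37, limma adjusted p = 0.00505) and differed from mice before transformation by -0.27 ± 0.37 (limma adjusted p = 0.616). Within mice numbered 3 and up the difference from control was -1.35 and did not pass (limma adjusted p = 0.0604), and within those numbered 1 and 2 it was -1.98 (0.00478).

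Ccr9 was read by 5 probe sets, and they did not all move alike. Probe sets 1427419_x_at, 1421920_a_at and 1421919_a_at fell before transformation, by log2 differences of -1.23 ± 0.06, -1.59 ± 0.10 and -2.18 ± 0.13 in the fit over all 24364 probe sets, of which 11.5% passed (limma adjusted p of 1.41e-07, 1.69e-06 and 1.34e-06). The probe set 1436065_at gave 189, 156, 181, 123 and 324 in controls and 185, 166, 331, 125 and 142 before transformation, which overlap, with a difference of -0.05 ± 0.29 (limma adjusted p = 0.958). At 1442758_at the values were 642, 567, 379, 337 and 1159 against 487, 450.5, 403, 458 and 445, a difference of -0.32 ± 0.28 (limma adjusted p = 0.590). Against mice before transformation 1442758_at alone of the 5 was lower in lymphomas (-1.84 ± 0.46, limma adjusted p = 0.00644), where 36.2% of all probe sets passed. Against control, where 40.9% of all probe sets passed, all 5 were lower in lymphomas, with differences from -2.71 to -0.99 (limma adjusted p of 0.000813 to 0.0346). A name ending in x marks a probe set that can also bind other transcripts, and what the 5 probe sets target within the gene was not analysed here. Ccr9 spans chr9:123767211-123783457 on GRCm38.p6.

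**Figure D2:**
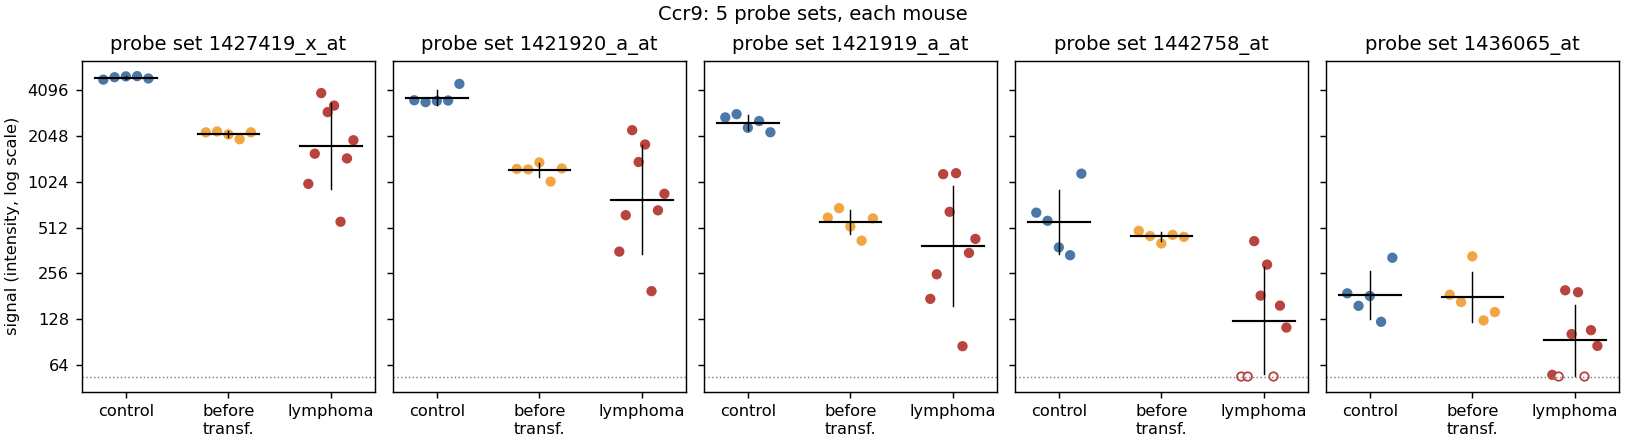
Signal (intensity, log scale) of the 5 Ccr9 probe sets in each mouse, by group, with means of log2 signals (horizontal bars), 1 SD (vertical bars) and the floor of 53.5 (dotted line; open points lie at it). The 3 probe sets on the left separate control from mice before transformation, and the 2 on the right, 1442758_at and 1436065_at, do not, while all 5 are lower in lymphomas.

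Cxcr4, which holds immature thymocytes in the cortex, was the gene of the set that rose. Its signal was 3361, 3196, 2686, 2611 and 2373 in controls 1 to 5, and 6759, 5608, 4263, 5694 and 5522 in mice before transformation 1 to 5. Every mouse before transformation lay above every control. The mean log2 signal rose from 11.46 ± 0.21 (SD, n = 5) to 12.43 ± 0.24 (n = 5), by 0.97 ± 0.13 (SE) or 1.95-fold, with a limma adjusted p of 0.000375. In lymphomas 1 to 8 the signal was 3430.4, 2982, 3205, 3709, 3044, 2463, 3454 and 3122, all below the mice before transformation. The log2 difference between those groups was -0.80 ± 0.11 (1.75-fold lower, limma adjusted p = 0.000123). Lymphomas overlapped controls, at 0.16 ± 0.11 above them (limma adjusted p = 0.249), a difference that passed after quantile normalization (0.30, limma adjusted p = 0.0177, where the adjusted p over the alternatives reached 0.805) and was -0.04 within mice numbered 1 and 2. Cxcr4 varied least of the 9 genes among lymphomas, with an SD of 0.18 on the log2 scale beside a median of 0.29 over all genes tested.

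Ccr7, the receptor for CCL19 and CCL21 that takes selected thymocytes to the medulla, had the largest fitted fall of the 9 before transformation. Controls 1 to 5 gave signals of 593, 567, 400.1, 418 and 495. Mice before transformation 1, 3, 4 and 5 gave 42.8, 53.7, 30.3 and 62.7, and mouse 2 was blank, so that 3 of the 5 counted as at the floor. Ccr7 was at least 8.84-fold lower, with a log2 difference of -3.14 ± 0.13 (SE; limma adjusted p = 4.92e-08) and rank 7 among the falls of 14019 genes. Among lymphomas, mouse 1 was blank and mice 2 to 8 gave 53.4, 112, 130.1, 27.0, 40.1, 60.9 and 224. Mice 3, 4 and 8 thus had clear signal and 4 of the 8 lay at the floor, yet none reached the lowest control. Lymphomas were at least 6.13-fold below control (-2.62 ± 0.33, limma adjusted p = 2.51e-05) and differed from mice before transformation by 0.53 ± 0.33 (limma adjusted p = 0.236).

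Ccr4, the receptor for CCL17 and CCL22 found on thymocytes just after positive selection, was dim in all groups. Controls 1 to 5 gave 112, 92.8, 122, 112 and 77.3 and mice before transformation 125, 97.8, 141, 147 and 140.0, which overlap (difference 0.34 ± 0.16, limma adjusted p = 0.258). Lymphomas ranged from 57.4 to 161 with a median of 79.5, lymphomas 4 and 8 being highest at 159 and 161. Their difference was -0.18 ± 0.27 from control (limma adjusted p = 0.624) and -0.52 ± 0.26 from mice before transformation (limma adjusted p = 0.142). Signals this near the floor limit how large a fall can be measured.

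Ccr10 was at the floor in 4 of 5 controls, whose signals were 26.1, 32.8, 29.1, 54.5 and 23.2. Before transformation mouse 3 gave 388 and the other 4 lay at the floor, at 33.7, 37.2, 18.4 and 3.27. Lymphomas 1 to 8 gave 50.7, 113, 234, 587, 73.8, 62.4, 48.4 and 154, so that 6 of 8 were above the floor and lymphoma 4 was highest. The log2 difference from control was 1.10 ± 0.49 in lymphomas (limma adjusted p = 0.0838) and 0.57 ± 0.49 before transformation (limma adjusted p = 0.605), and neither passed. The lymphoma difference was 1.26 and passed without lymphoma 1 (limma adjusted p = 0.0453). It also passed with the floor at the 10th percentile (1.67, limma adjusted p = 0.0179), with mouse number as a block (1.42, 0.0419) and with sex as a covariate (1.07, 0.0375). It was 0.54 without the mice of highest B-cell marker signal (limma adjusted p = 0.144), and over the alternatives the adjusted p ran from 0.0179 to 0.337. Before transformation the difference was -0.01 without mouse 3.

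Markers of B cells, which use CCR7 and in some states CCR10, were high in some of the mice with Ccr10 signal. The summed signal of the 7 measured of 8 B-cell markers was 1209 to 1526 in controls, 745 to 2803 before transformation and 704 to 5973 in lymphomas. Mouse 3 held the highest sum before transformation (2803), and lymphomas 3 and 4 the highest among tumours (5973 and 3636), and the same 3 mice had the highest Ccr10 signals of their groups. Lymphoma 7 went against this, with the next highest sum (2258) and Ccr10 at the floor. Ccr7 followed the sums in part. The tumours with Ccr7 above the floor, lymphomas 3, 4, 7 and 8, were those with the highest sums. Their order differed, since lymphoma 8, with a sum of 1778, had the highest Ccr7 of the tumours. In before transformation 3 the Ccr7 signal was 53.7 despite the high sum. Of the B-cell markers none was at the floor throughout a group, and none of the 7 passed in any of the 3 comparisons. The J chain gene Jchain, a marker of antibody-secreting cells, gave 4512 in lymphoma 3, 2126 in lymphoma 4, 1945 in lymphoma 2 and 1829.7 in lymphoma 8, and 848 or less in the other 14 mice. Of the 5 measured markers of such cells 1 was higher and 1 lower in lymphomas against control (40.1% of all genes passed). Sdc1 ran from 378 to 990 in lymphomas, with 389 in lymphoma 3 and 545 in lymphoma 4. Xbp1 was lower in lymphomas than in control (-0.60, limma adjusted p = 0.0327, and 0.126 after quantile normalization). The 5 summed to 2790 to 2978 in controls, 2958 to 4851 before transformation and 1685 to 8326 in lymphomas, highest in lymphoma 3. Without before transformation 3 and lymphomas 3 and 4 the log2 difference of Ccr7 was -3.13 before transformation and -2.81 in lymphomas against control, close to the values with them. The part of B cells in the Ccr10 and Ccr7 signals was not tested.

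**Figure D3:**
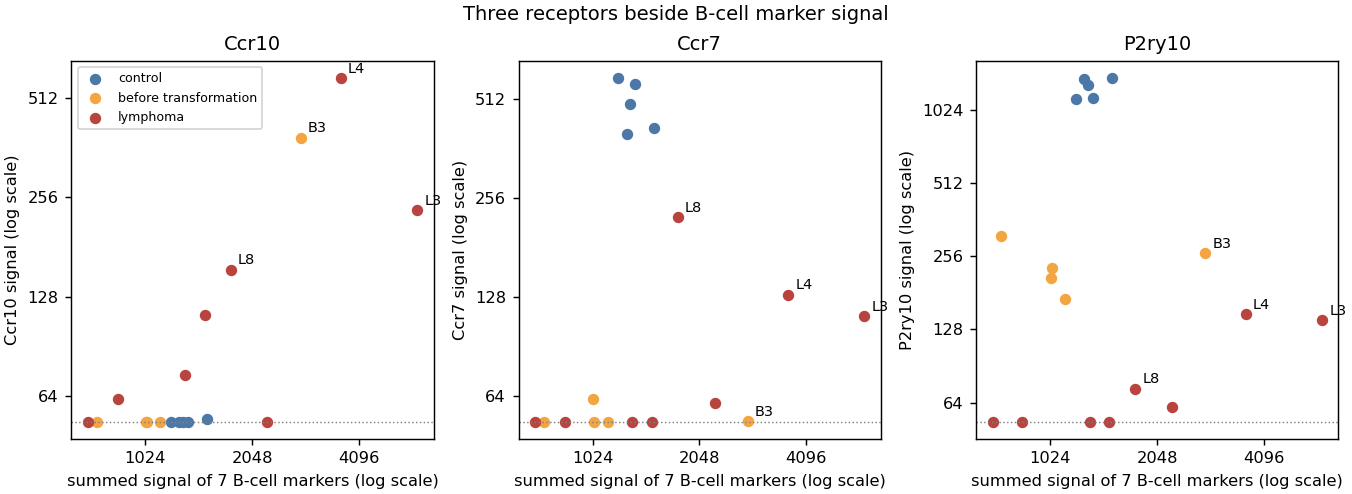
Signal (log scale) of Ccr10, Ccr7 and P2ry10 in each mouse against the summed signal of 7 B-cell markers (log scale), coloured by group; the dotted line is the floor of 53.5, and B3, L3, L4 and L8 name before transformation 3 and lymphomas 3, 4 and 8. B3, L3 and L4 have the highest marker sums (2803, 5973 and 3636) and the highest Ccr10 signals, while Ccr7 and P2ry10 stay below every control in those mice.

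S1pr1, the sphingosine 1-phosphate receptor without which mature thymocytes stay in the thymus, fell before transformation and was no lower in tumours by the test. Its signal was 387, 377, 231, 342 and 367 in controls 1 to 5 and 131, 97.5, 199.8, 136 and 116 in mice before transformation 1 to 5. The groups did not overlap, although control 3 and before transformation 3 came near each other. The log2 mean went from 8.39 ± 0.31 (SD, n = 5) to 7.05 ± 0.38 (n = 5), 2.53-fold lower (-1.34 ± 0.20 SE, limma adjusted p = 0.000967). Lymphomas 1 to 8 gave 71.8, 93.7, 181, 186, 109, 126, 95.1 and 121, all below the controls and overlapping the mice before transformation. They were 2.86-fold below control (-1.51 ± 0.22, limma adjusted p = 9.23e-05) and differed from mice before transformation by -0.17 ± 0.24 (limma adjusted p = 0.603). Within mice numbered 1 and 2 the fall before transformation was -1.76 and within those numbered 3 and up -1.07, both past the threshold (limma adjusted p of 0.0114 and 0.0403).

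Klf2, the activator of S1pr1, was tight in control thymus at 719, 735, 676, 756 and 834. Mice before transformation 1 to 5 gave 229, 125, 636, 403 and 341, a 5.08-fold range in which mouse 3 came close to the lowest control and mouse 2 was lowest. The log2 difference was -1.30 ± 0.34 (2.46-fold lower, limma adjusted p = 0.0295), and its call was fragile. It was lost without before transformation 1 (-1.20) or 5 (-1.34) and without any single control (-1.33 to -1.25), with limma adjusted p of 0.0546 to 0.0722. It was -0.76 within mice numbered 3 and up (limma adjusted p = 0.0804) and -2.10 within those numbered 1 and 2 (0.0194), and over the alternatives the adjusted p ran from 0.00508 to 0.0813. Lymphomas 1 to 8 gave 224, 316, 566, 469.6, 251, 391, 271 and 352, all below the controls, and there the difference of -1.13 ± 0.20 (limma adjusted p = 0.000396) passed in both mouse-number sets (-1.45 and -1.03). Lymphomas against mice before transformation differed by 0.17 ± 0.33 (limma adjusted p = 0.724), with a sign that turned without before transformation 2 (-0.15).

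Cd69, an early activation antigen of selected thymocytes that opposes S1PR1, did not follow S1pr1 and Klf2. Controls 1 to 5 gave 571, 540.0, 463, 404 and 571 and mice before transformation 646, 438, 655, 514 and 702, overlapping, with a difference of 0.20 ± 0.15 (limma adjusted p = 0.53). In lymphomas 1 to 8 the signal was 159.8, 187, 502, 445, 325, 40.7, 264 and 339.9, a 9.39-fold range with lymphoma 6 at the floor and lymphomas 3 and 4 within the range of controls. Lymphomas fell below mice before transformation by a difference of -1.29 ± 0.42 (2.44-fold, limma adjusted p = 0.0285). That call was lost without before transformation 1, 3 or 5 (-1.25, -1.24 and -1.22, limma adjusted p of 0.0593, 0.0590 and 0.0678) and within mice numbered 3 and up (-1.22, limma adjusted p = 0.128, the highest over the alternatives). Against control the difference was -1.08 ± 0.42 (limma adjusted p = 0.0501) and lay on the threshold. It passed without lymphoma 3 (-1.24, limma adjusted p = 0.0269), 4 (-1.21, 0.0346) or 6 (-0.78, 0.0257), and over the alternatives the adjusted p ran from 0.00345 to 0.283.

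P2ry10 fell before transformation and fell again in lymphomas. Its signal was 1130.1, 1146, 1371, 1378 and 1289.8 in controls 1 to 5, and 229, 309, 264, 169.9 and 209 in mice before transformation 1 to 5. In lymphomas it was 19.5, 22.7, 139.9, 147, 33.5, 61.2 and 72.9 in mice 1 to 5, 7 and 8 and blank in mouse 6, so that 4 of 8 counted as at the floor. The 3 groups formed 3 steps without overlap. The fall before transformation was 5.44-fold (-2.44 ± 0.15 SE, limma adjusted p = 1.05e-06), the fall from there to lymphoma at least 3.19-fold (-1.68 ± 0.28, limma adjusted p = 0.000455) and that from control to lymphoma at least 17.4-fold (-4.12 ± 0.26, limma adjusted p = 3.08e-08), rank 7 among falls there. All 3 differences passed within mice numbered 1 and 2 (-2.10, -2.31 and -4.41) and within those numbered 3 and up (-2.68, -1.40 and -4.07). P2ry10 lies on the X chromosome (chrX:107088492-107104974, GRCm38.p6), and by Xist and Eif2s3y signal 2 controls and 6 lymphomas were female and all 5 mice before transformation male. Of the other 2 tumours lymphoma 3 was male, and lymphoma 4 had both signals (Xist 1109.5 and Eif2s3y 313) and was left out of the fit with sex. The mouse-number sets also differ in sex: among mice numbered 1 and 2 controls and lymphomas were female and mice before transformation male. Among those numbered 3 and up all controls were male and lymphomas 5 to 8 female. With sex as a covariate the differences of P2ry10 from control were -2.54 before transformation and -3.96 in lymphomas, both past the threshold. For lymphomas against mice before transformation no fit with sex was run for any gene. The mice before transformation were all male and 6 lymphomas female, and the part of sex in the differences between them was not tested.

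**Figure D4:**
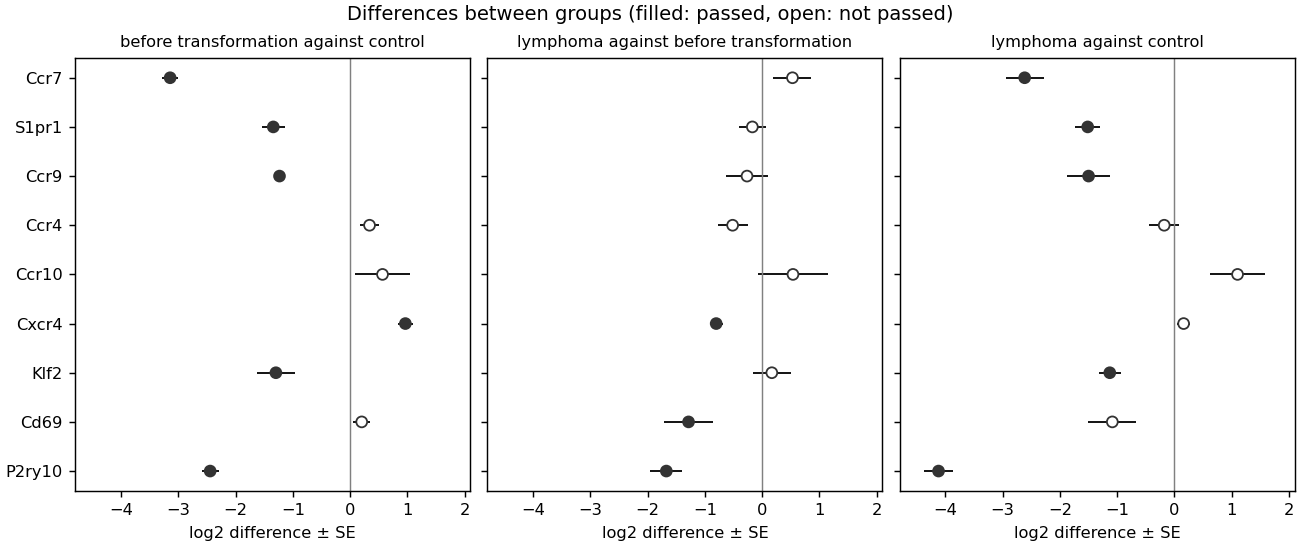
Log2 differences (points) with their SE (bars) for the 9 genes in the 3 comparisons; positive values are higher in the first group named, filled points passed a limma adjusted p of 0.05 over 14019 genes and open points did not. Ccr7, S1pr1, Ccr9, Klf2 and P2ry10 lie left of 0 in both comparisons with control, from -4.12 to -1.13, and Cxcr4, Cd69 and P2ry10 are the filled points of the middle panel.

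The tumours differed among themselves in these genes. The SD of the log2 signal over the 8 lymphomas was 1.22 for Ccr10, 1.04 for Cd69, 0.94 for Ccr9 and 0.80 for Ccr7, beside a median of 0.29 over all genes, and 0.60 for Ccr4 and 0.63 for P2ry10. Lymphoma 6 had the lowest Ccr9 and Cd69 signals of all 18 mice, and its P2ry10 was blank. Lymphomas 3 and 4 had the 2 highest P2ry10, S1pr1, Klf2 and Cd69 signals of the tumours. They were also the tumours with the highest B-cell marker sums and the 2 with Eif2s3y signal, and the part of either in these values was not tested. Without them and before transformation 3, 6, 3 and 6 of the 9 genes passed in the 3 comparisons, beside 6, 3 and 5 with them. In mice before transformation the spread was wide for Klf2 (SD 0.88) and Ccr10 (1.28), and 0.07 for Ccr9.

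**Figure D5:**
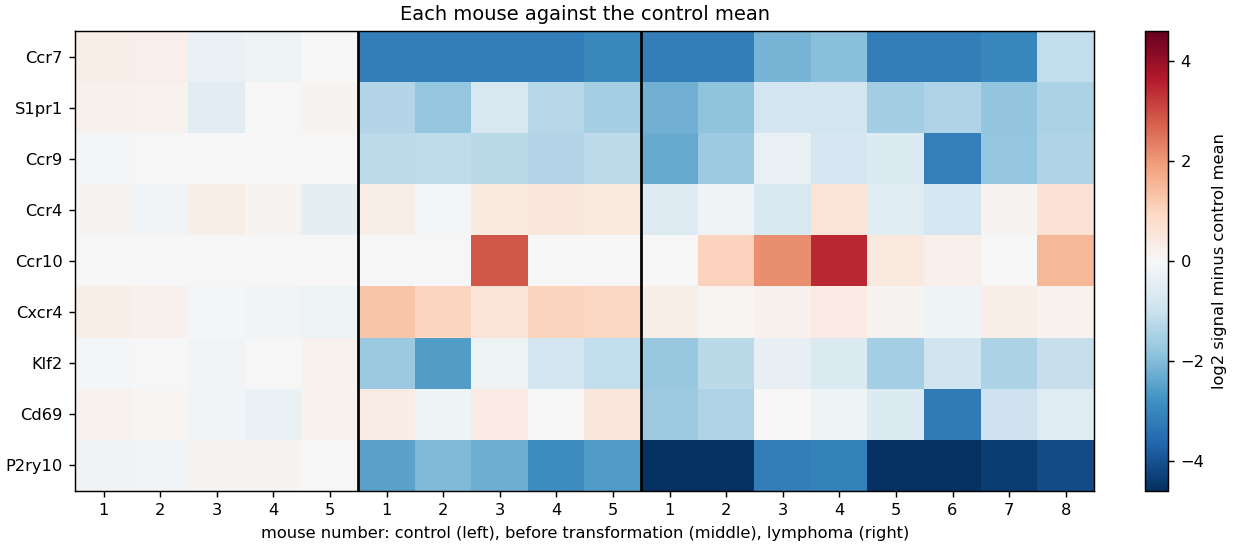
Log2 signal of each gene in each mouse minus the mean of the 5 controls (colour, blue lower and red higher), with mice in columns by group and number. The blue rows of Ccr7, S1pr1, Ccr9, Klf2 and P2ry10 begin before transformation, Cd69 turns blue in lymphomas with lymphoma 6 lowest, and the reddest cells of Ccr10 are before transformation 3 and lymphomas 3, 4 and 8, with paler red in lymphomas 2, 5 and 6.

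Genes whose signals ran closest to each of the 9 over all 18 arrays were found by the root mean square difference between log2 signals centred on the control mean. Closest to Ccr7 were Slfn1 (0.57) and Scn4b (0.60), to S1pr1 4930523C07Rik (0.32) and Stk10 (0.34), to Ccr9 Stk17b (0.37) and Gimap6 (0.42), and to Klf2 Shisa5 and Ifi27l2b (0.40 each). Closest to P2ry10 were Dnajc6 (0.54) and Als2cl (0.64), to Cxcr4 Stt3b and Rap1b (0.20 each), to Cd69 Man1a and Kcna3 (0.36 each), to Ccr4 Ces1d (0.29) and Gfra3 (0.30), and to Ccr10 Basp1 (0.62) and Cr2 (0.64). Genes of small change lie near each other by this measure whatever their function, so a small value for Ccr4 says little. Genes set to the floor in the same mice are also drawn together, which limits the matches of Ccr7, P2ry10 and Ccr10. Scn4b lay at the same -2.74 from its control mean both before transformation and in lymphomas.

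The wider sphingosine 1-phosphate pathway was measured by 11 genes. Before transformation 2 rose and 1 fell, and in lymphomas against control 4 rose and 1 fell, with medians of 0.16 and 0.18. These 3 of 11 and 5 of 11 stand beside 10.5% and 40.1% of all genes, the shares against which the counts of the lists that follow are also to be read. The gene that fell in both was S1pr4, a second lymphocyte receptor of this lipid, by differences of -1.02 ± 0.16 (limma adjusted p = 0.00142) and -0.81 ± 0.15 (0.000673). Those that rose include the lipid phosphate phosphatases Plpp3 and Plpp1. Plpp3 went from 63.8 to 82.7 in controls to 136 to 214 before transformation and 212 to 627 in lymphomas, rising by 1.31 ± 0.15 (limma adjusted p = 0.000168) and then by 0.89 ± 0.26 (0.0168). No control had Plpp1 signal above the floor, and before transformation it was at least 2.43-fold higher (limma adjusted p = 0.000605). Sgpl1, the lyase that destroys the lipid, was 0.79 ± 0.30 above control in lymphomas (limma adjusted p = 0.0466), Sgpp1, a phosphatase of the lipid, was 0.28 ± 0.11 above it (0.0494), and S1pr2, a further receptor, differed by -0.13 ± 0.15 (0.530). The markers of connective tissue cells, which also express such phosphatases, summed to 639.6 to 795 in controls, 767 to 1468 before transformation and 736 to 5041 in lymphomas over 6 markers. Of them Lum was at the floor in every control and Pdgfrb in every mouse before transformation. Their part in the Plpp3 and Plpp1 signals was not tested.

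Of 10 measured regulators and targets of KLF2, 1 fell before transformation and 8 fell in lymphomas against control, with none higher (medians of -0.18 and -0.84). Under quantile or median scaling 6 of the 10 fell in lymphomas, and under quantile scaling Foxo1 rose before transformation (0.36, limma adjusted p = 0.0180, against 0.34 and 0.0542 as deposited). The one was Mef2d, a MEF2 factor of the pathway that induces Klf2, by -0.64 ± 0.13 (limma adjusted p = 0.00571). In lymphomas Mef2d was lower than control by a difference of -1.43 ± 0.14 (limma adjusted p = 2.88e-06), Mef2a by -1.64 ± 0.22 (3.54e-05) and the forkhead factors Foxo4 and Foxo3 by -0.83 ± 0.09 (5.58e-06) and -0.88 ± 0.16 (0.000520). Foxo1, the forkhead factor best known for inducing Klf2 and S1pr1 in T cells, was -0.42 ± 0.18 from control in lymphomas (limma adjusted p = 0.0751) and fell from mice before transformation by a difference of -0.76 ± 0.18 (0.00552). Of 11 other KLF genes 4 fell and 1 rose before transformation, and 5 fell and none rose in lymphomas against control, where 2 rose under quantile or median scaling. Klf3, a repressor of the family, fell from a range of 1006 to 1542 in controls to 287 to 530.2 (-1.60 ± 0.17, limma adjusted p = 6.97e-05). Klf6 rose, from 353 to 540.9 in controls to 747 to 995 (0.89 ± 0.12, limma adjusted p = 0.000535), and fell in lymphomas to 109 to 382 (-1.82 ± 0.26 from mice before transformation, 0.000117).

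Of 10 other chemokine receptors tested, 1 rose and 1 fell before transformation, and 2 rose and 1 fell in lymphomas against control (medians 0.23 and 0.08), or 2 of 10 and 3 of 10 beside 10.5% and 40.1% of all genes, the one that fell not passing after quantile normalization. Ccr8, found on mature and regulatory T cells, was at least 1.94-fold lower before transformation (limma adjusted p = 0.00113), and Ccr2, a receptor of monocytes, rose by 0.73 ± 0.20 (0.0393). Of 5 chemokine ligands tested none passed before transformation, and 1 rose and 2 fell in lymphomas against control. With arrays centred on their median 2 rose and 1 fell there. Against mice before transformation 3 rose and 1 fell in lymphomas, where 34.4% of all genes passed. Ccl25, which acts on CCR9, lay between 81.4 and 316 in controls and 123 and 312 before transformation and was at the floor in 6 of 8 lymphomas (at least 2.72-fold below control, limma adjusted p = 0.00167). Ccl27a was the other that fell from control (-0.51, limma adjusted p = 0.0148). Cxcl12, which acts on CXCR4, did not pass before transformation (-0.05 ± 0.13, limma adjusted p = 0.897) and rose in lymphomas from 229.7 to 294 in controls to 329.6 to 582 (0.67 ± 0.14, 0.00191). Ccl25 comes from thymic epithelium, whose 7 measured markers summed to 1334 to 2056 in controls, 1244 to 2813 before transformation and 1251 to 1644 in lymphomas. Of these sums Epcam alone gave 688 to 1086 in controls and 567 to 845 in lymphomas. Foxn1, another of the 7, lay at 107 to 233 in controls, 74.5 to 165 before transformation and 73.0 to 113 in lymphomas. Of the 6 epithelial markers tested 1 was lower in lymphomas against control and none higher. The part of epithelial cells in the Ccl25 signal was not tested.

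Relatives of P2ry10 among receptors for lysolipids and nucleotides fell in 3 of 10 measured genes before transformation and in 6 of 10 in lymphomas against control (medians -0.15 and -0.84), where 2 others rose under quantile or median scaling alone. Gpr174, another receptor for lysophosphatidylserine, lay at 343 to 395 in controls and 302 to 594 before transformation and fell to 102 or less in lymphomas (-2.49 ± 0.16 from control, limma adjusted p = 4.27e-08). P2ry10b, the P2ry10 paralogue, lay at 524 to 733, 446 to 679 and 128 to 280.4 in the 3 groups, a difference of -1.83 ± 0.21 in lymphomas from control (limma adjusted p = 9.13e-06). Lpar6, a receptor for lysophosphatidic acid, fell before transformation (-0.72 ± 0.10, limma adjusted p = 0.000654) and was -2.09 ± 0.37 from control in lymphomas (0.000436). Whether a probe of P2ry10 also binds P2ry10b was not analysed here.

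Adhesion receptors fell in 6 of 13 measured genes and rose in 1 before transformation, and fell in 8 and rose in 3 in lymphomas against control (medians -0.28 and -1.22). The riser before transformation was Cd44, the hyaluronan receptor, from 219.6 to 360.4 in controls to 2433 to 4754 (3.49 ± 0.21, limma adjusted p = 9.46e-07). The integrin chains Itgal and Itgb2, which form LFA-1, fell by differences of -0.41 ± 0.08 and -0.60 ± 0.11 (limma adjusted p of 0.00467 and 0.00311), and Itgae, which binds E-cadherin on epithelium, by -1.08 ± 0.18 (0.00185). In lymphomas Itga6 was -3.01 ± 0.33 from control (limma adjusted p = 7.67e-06) and Plxnd1, a semaphorin receptor that guides thymocytes to the medulla, -3.34 ± 0.48 (7.69e-05).

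Of 34 genes that carry receptor signals to the cytoskeleton, 10 fell and 5 rose before transformation, and 23 fell and 2 rose in lymphomas against control (medians -0.09 and -0.53). Under quantile scaling 11 fell and 4 rose before transformation and 20 fell and 4 rose in lymphomas, and with arrays centred on their median 7 fell and 4 rose, then 19 fell and 2 rose. Rgs10, a brake on G-protein signalling, fell from 1786 to 2127 in controls to 300.2 to 709 before transformation (-2.31 ± 0.19, limma adjusted p = 1.13e-05). Rassf5, which couples RAP1 to integrins, fell by a difference of -1.02 ± 0.08 (9.60e-06), while Rap1b itself, Pik3r5, a regulatory subunit of the kinase downstream of chemokine receptors, and Gnaq, a G-protein subunit, rose by 0.72 ± 0.08, 1.15 ± 0.08 and 1.19 ± 0.14 (limma adjusted p of 9.68e-05, 3.23e-06 and 0.000162). Gnai2, the subunit most chemokine receptors use, did not pass (0.09 ± 0.09, limma adjusted p = 0.692). In lymphomas Coro1a, an actin regulator needed for thymic egress, was -1.04 ± 0.09 from control (limma adjusted p = 1.06e-06) and Rgs14 -1.90 ± 0.12 (3.17e-08).

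Genes of thymocyte selection and maturation outside the 9 fell in 8 of 12 measured and rose in 2 before transformation, and fell in 9 and rose in 2 in lymphomas against control (medians -0.68 and -1.002). With arrays centred on their median 1 rose before transformation, Gata3 losing its call (0.39, limma adjusted p = 0.0834), and 8 fell in lymphomas, and under quantile scaling 7 fell in each. Cd6 fell by a difference of -0.82 ± 0.08 (limma adjusted p = 4.60e-05), Bcl2, a survival factor of mature thymocytes, by -0.91 ± 0.14 (0.00109) and Egr1, induced by receptor signalling, by -1.09 ± 0.21 (0.00489), while Tox rose by 0.60 ± 0.11 (0.00311). The labelled tissue was checked against defining genes: 7 measured T-cell genes summed to 30445 to 34435 in controls, 23585 to 31362 before transformation and 10161 to 17636 in lymphomas, and 8 genes of double-positive thymocytes to 40829 to 42262, 30911 to 49144 and 8336 to 17891. Before transformation 2 of these 8 fell and 1, Cd4, rose (0.55 ± 0.14, limma adjusted p = 0.0282, and 0.0832 with arrays centred on their median), and in lymphomas all 8 were lower than control, with Ptcra at the floor in every tumour. The part of the mix of thymocyte stages in the changes of the 9 genes was not tested. The 7 granulocyte markers measured summed to 3217 to 9828 in controls, 1410.0 to 2277 before transformation, where Camp was at the floor in every mouse, and 1699 to 4253 in lymphomas. The 7 myeloid markers summed to 2882 to 4112, 1761 to 4720.3 and 4529 to 16036 in the 3 groups, and the 7 endothelial markers, of cells that also express S1pr1, to 1008 to 1280.1, 955 to 1272 and 846 to 1174. Of the 7 myeloid markers 4 were higher and 2 lower in lymphomas against control (40.1% of all genes passed), so they did not move as 1. The median of Lyz2 was 934 in controls and 4395 in lymphomas. That of Csf1r was 1501 and 919, and that of Cd14 339 and 122.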

How the data were processed

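RNA of thymocytes or tumour masses from 18 mice was measured on Affymetrix mouse arrays, 1 array per mouse. The deposited values are linear probe-set intensities. Per the design text the authors computed them in dChip, whose version, model and scaling the sources used here do not give. Of 811818 values 1.20% were blank and 606 were negative, 605 of these on control 1, and array medians ran from 125 to 166.

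Values under the 20th percentile and blanks, 3 of them among the 9 genes' values, were set to that percentile (53.5) and log2 was taken. A gene was read by its probe set of highest mean, and the 14019 genes above the 40th percentile (109) on at least 5 arrays were tested. Of 45101 probe sets 34958 had 1 gene symbol, 932 several and 9211 none. Groups were compared in pairs with limma 3.58.1 (R 4.3.3; lmFit and eBayes with an intensity trend), with Benjamini-Hochberg adjustment over all genes and a threshold of 0.05. The fit was tested on simulated data. A fold is given as "at least" where 3 of 5 or 4 of 8 mice of the lower group were at the floor. The mice are independent per the design text, and the number of arrays limits the precision.

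The 9 genes and all lists were chosen with earlier results of these data known. Named beside them are, per list and comparison, up to 5 genes of smallest adjusted p and the brightest gene that did not pass, and the 2 nearest profiles of each gene. Named by no such rule are Jchain, Sdc1, Xbp1, Lyz2, Csf1r, Cd14, Epcam, Foxn1, Ptcra, Lum, Pdgfrb, Camp, Cd4, Gata3 and the rise of Foxo1. These were chosen after their values were seen. Alternatives were the floor, the filter, blanks, scaling, the choice of probe set, the fit, mouse number, sex (in the comparisons with control alone) and leaving out each mouse. Mouse numbers are those of the sample titles, and the sets made from them also differ in sex. The alternatives without the mice of highest B-cell marker sums, and other scalings for the gene lists, were chosen after seeing the data.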

Additional observations from a re-analysis of the deposited data

Results flagged for a closer look

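Of 27 sets of mice, each 1 gene in 1 group, 4 held a mouse flagged by a rule for outlying values. Where most or all of the other mice lie at the floor, nearly any value above it is flagged. The rate of about 1 in 20 that chance alone gives does not hold for such sets. Ccr10 gave 388 in before transformation 3 while the other 4 mice of that group were at the floor, and 54.5 in control 4 while the other 4 controls were at the floor. Ccr7 gave 62.7 in before transformation 5, with the others between 53.5 and 53.7 once set to the floor. As deposited these others were 42.8, 53.7, 30.3 and a blank, so the narrow range comes from the floor. S1pr1 gave 231 in control 3, with the other controls between 342 and 387. The values of Ccr7 before transformation 5 and Ccr10 control 4 lie just above the floor.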

How the results depend on the processing

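The count of the 9 genes that passed stayed within 1.5 times its reported value under every alternative run, at 5 to 6 before transformation against control, 2 to 3 in lymphomas against mice before transformation and 4 to 6 in lymphomas against control. Correlations of same-numbered deviations ran from -0.14 to 0.38 before transformation against control, 0.09 to 0.41 in lymphomas against mice before transformation (4 of 5 over 0.1) and -0.07 to 0.27 in lymphomas against control. In no comparison did every pair pass 0.1, so the mice were not treated as paired, and with the replicate block 6, 3 and 6 genes passed. Over single genes 709 values kept direction and call, 17 lost the call, 14 gained it and 7 turned sign. Signs turned for Ccr10 before transformation against control (-0.0052 without before transformation 3, also with the mice of highest B-cell marker sums left out, and up to 0.71 without another mouse) and Cd69 there (-0.064 in mice numbered 1 and 2). They also turned for Ccr9 in lymphomas against mice before transformation (0.093 with the replicate block), Klf2 there (-0.27 in mice numbered 3 and up, -0.15 without before transformation 2 and up to 0.44 without another mouse) and Cxcr4 in lymphomas against control (-0.035 in mice numbered 1 and 2). None of these passed as reported, and the cause was not tested. Without a filter Klf2 before transformation and Cd69 in lymphomas against mice before transformation lost their calls (limma adjusted p of 0.0782 and 0.0582), with more genes tested. Signals near the floor of 53.5 limit what can be said of Ccr10, Ccr4 and, outside controls, Ccr7.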
